A study of Mus musculus with 15 samples.

Results

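The genes described here are 5 that take part in the exchange of signals between the mouse oocyte and the cumulus cells around it: Gdf9, Bmp15, Bmp6, Fgf8 and Kit. They were chosen by name, as growth factors that the oocyte sends out and the receptor Kit on its own surface. No cut-off on a measured value was used, but earlier results of these data were known. They make up 5 of the 28785 Ensembl gene IDs with a count in at least 1 oocyte. Levels were measured in single oocytes with MATQ-seq, a method that amplifies the total RNA of 1 cell, 1 oocyte per library. The germinal vesicle (GV) group held 9 fully grown oocytes, arrested in prophase of meiosis. They came from female mice of about 6 to 8 weeks, killed 44 h after an injection of pregnant mare serum gonadotropin (7 IU), a hormone that makes follicles grow. The MII group held 6 eggs arrested in metaphase of the second division. They came from mice of the same age range, given the same gonadotropin. At 48 h after it, human chorionic gonadotropin (7 IU) was given to set off ovulation. Eggs were collected from the oviducts 20 h after that second hormone, and hyaluronidase at 300 IU/mL took off their cumulus cells. Strain, genotype and the mouse each oocyte came from are not given in the labels, and both groups came from hormone-stimulated females.

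With no mouse named, each stage counts as 1 sample however many oocytes it holds, so nothing was tested and no gene is called changed. Differences are given by size beside the spread between oocytes, which may be technical.

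As background, the oocyte directs the cells that feed it. GDF9 and BMP15 are ligands of the TGF-β family made by the oocyte. They bind receptors on cumulus and granulosa cells, where Smad proteins carry the signal, and they promote growth of the follicle and expansion of the cumulus. BMP6 is a further oocyte ligand of the BMP branch, and FGF8 is a fibroblast growth factor that acts with BMP15 to drive glycolysis in cumulus cells. KIT works in the other direction: it is a tyrosine kinase receptor in the oocyte membrane, its ligand comes from granulosa cells, and its signal through PI3 kinase supports oocyte growth.

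Total counts ran from 3687610 to 7103063 per GV oocyte and from 808641 to 2348281 per MII oocyte. A feature with no symbol in the tables used here, ENSMUSG00000119584, accounted for 15.7% to 61.2% of an MII library, for 3.43% to 11.2% of GV7, GV8 and GV9, and had no count in GV1 to GV6. It lowers every other level in CPM (counts scaled to a common library total) most in MII. The GV files also carry different column headers, of 1 kind in GV1 to GV6 and another in GV7 to GV9, and the MII files share yet another. Their meaning is not given in the sources used, and the stage cannot be told apart from the set of files. All 12 genes of the oocyte marker list had counts in both stages, among them Zp3, a zona pellucida protein, with summed levels of 7570 CPM (GV) and 2013 CPM (MII).

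The 3′ ends of the mRNAs are shown first, since the length of the poly(A) tail of a stored mRNA is set there as the oocyte matures. The AATAAA signal directs polyadenylation in the nucleus. The element TTTTAT is bound by CPEB, the protein that directs polyadenylation in the cytoplasm. The last 100 bases of 1 GENCODE M21 mRNA per gene were searched on the mRNA's own strand for AATAAA and its variant ATTAAA, and for TTTTAT and its variant TTTTAAT. Windows of 30 bases around the matches read as follows, written as DNA from 5′ to 3′ with the motifs in capitals.
Gdf9: gTTTTATgtgacggaagAATAAActgttga
Bmp15: ttttcttaatcttaaagAATAAAttttcat
Bmp6: ctataatttattgtctaTTTTATatccatt
Kit: cagttctgaagaattctAATAAAaatgtaa
In Gdf9 TTTTAT began 39 bases and AATAAA 23 bases before the end of the mRNA, so this window holds both. Bmp15 and Kit held AATAAA, which began 28 and 27 bases before the end. Bmp6 held TTTTAT, 79 bases before the end, and no AATAAA or ATTAAA in the last 100 bases. Fgf8 held none of the 4 motifs in that window. Of 19846 mRNAs searched in the same way, 63.6% held AATAAA, 19.9% ATTAAA, 13.7% TTTTAT and 5.01% TTTTAAT. A match describes the letters and shows no use of the site. The counts hold no measure of tail length.

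Transcripts of all 5 genes were counted in all 15 oocytes, also after each oocyte was thinned to 808641 counts, where the lowest value for a gene in an oocyte was 21 counts. In CPM all 5 were lower over the MII oocytes than over the GV oocytes. Gdf9 was 3.48-fold lower, Bmp15 3.0-fold, Fgf8 2.54-fold, Bmp6 1.98-fold and Kit 1.86-fold. Much of this was shared by other genes, since the median of 10090 measured genes (at least 5 CPM in the higher stage) had a log2 ratio MII/GV of −0.98 in CPM. In CPM 3 of the 5 genes were at least 2-fold lower in MII, and so were 49.1% of all measured genes. None of the 5 was at least 2-fold higher in CPM, as 2.01% of measured genes were. Ratios below are therefore given on the log2 scale relative to the median measured gene, unless CPM is named. By that measure 0 of the 5 genes were at least 2-fold lower, beside 15.5% of measured genes, and 0 were at least 2-fold higher, beside 12.1%. Gdf9 and Bmp15 lay below the median gene, at −0.81 and −0.60, and the ratios of Bmp6, Fgf8 and Kit were smaller than their spread. The median of the 5 was −0.36. Fewer transcripts of a gene and a larger share taken by other RNA cannot be told apart in these counts.

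**Figure D1:**
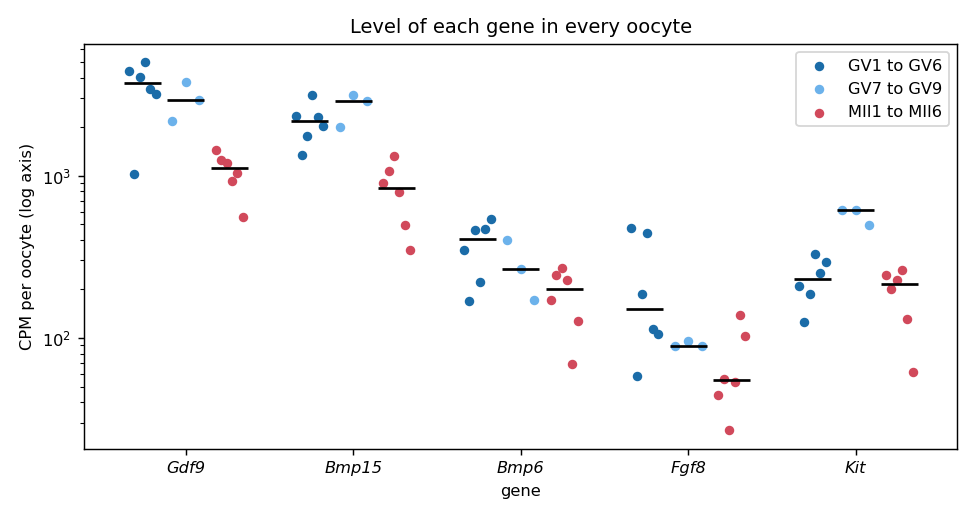
CPM (log axis) of the 5 genes in every oocyte: GV1 to GV6 dark blue, GV7 to GV9 light blue, MII red, with black lines at the medians. For Bmp15 every MII oocyte lies below every GV oocyte, for Gdf9 GV2 alone reaches the MII range, and Kit is higher in GV7 to GV9 than in GV1 to GV6.

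Gdf9 (ENSMUSG00000018238, chromosome 11, plus strand, 2 exons) encodes the growth differentiation factor without which mouse follicles do not pass the primary stage. The 9 GV oocytes had 1019 CPM at the lowest, 3417 at the median and 4983 at the highest. The 6 MII oocytes had 557, 1119 and 1442 CPM. GV2 held the lowest GV value and lay inside the MII range, while the other 8 GV oocytes were above every MII oocyte. Relative to the oocyte's median gene, 7 of 9 GV oocytes were above every MII oocyte. Summed over oocytes, 150660 counts in GV gave 3432 CPM (exact Poisson 95% interval 3414 to 3449), and 9508 counts in MII gave 987 CPM (967 to 1007). PCR reads are not independent molecules, so these intervals cover counting error only. The log2 ratio against the median gene was −0.81 ± 0.71, where the number after ± is the spread, the SDs of the 9 GV and 6 MII oocytes combined. The ratio was −0.88 against GV1 to GV6 alone and −0.72 against GV7 to GV9 alone. Of all measured genes, 19.3% had a lower ratio.

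Bmp15 (ENSMUSG00000023279, X chromosome, minus strand, 2 exons) encodes the closest relative of GDF9 in the oocyte, and the pair can join as a heterodimer. Its CPM ran from 1341 through a median of 2304 to 3154 in GV and from 347 through 844 to 1323 in MII. Every MII oocyte was below every GV oocyte, as for 4.65% of measured genes, while the reverse held for 0.0892% of them and for none of the 5. The margin was narrow, between GV2 at 1341 CPM and MII3 at 1323 CPM. With the unnamed feature left out of the totals, MII3 stood at 1570 CPM and overlapped GV2. Relative to the oocyte's median gene, 8 of 9 GV oocytes were above all MII oocytes, and 0.684% of measured genes had no overlap at all on that scale. The summed levels were 2285 CPM (2271 to 2299, 100314 counts) in GV and 761 CPM (744 to 779, 7334 counts) in MII. The log2 ratio was −0.60 ± 0.46, larger than the spread. With GV1 to GV6 alone it was −0.51, and with GV7 to GV9 alone −0.94. Among the MII oocytes the coefficient of variation was 43.9% in CPM and 19.3% with the feature left out, and the lowest CPM values were those of MII5 and MII6, where the feature took 52.6% and 61.2% of the counts.

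Bmp6 (ENSMUSG00000039004, chromosome 13, plus strand, 7 exons) encodes a bone morphogenetic protein that signals through Smad1 and Smad5. Its GV oocytes ran from 170 CPM (GV2) through 347 to 539 CPM (GV6), and its MII oocytes from 68.6 CPM (MII5) through 199 to 268 CPM (MII3). The groups overlapped: 5 of 9 GV oocytes were above all MII oocytes and 2 of 6 MII oocytes were below all GV oocytes. Relative to the oocyte's median gene these counts were 4 and 0. The sums gave 354 CPM (349 to 360, 15561 counts) in GV and 179 CPM (171 to 188, 1727 counts) in MII. The log2 difference from the median gene was 0.00 ± 0.83, and 50.0% of measured genes had a lower ratio. The sign rests on the set of GV files, with −0.09 for GV1 to GV6 and 0.19 for GV7 to GV9. Exons of Bmp6 overlap those of Txndc5 on the opposite strand by 224 bases. Txndc5 had 8789 counts in all, and since the use of strand in counting is not given, reads in the overlap cannot be told apart.

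Fgf8 (ENSMUSG00000025219, chromosome 19, minus strand, 5 exons) varied most of the 5 genes between oocytes of a stage. Its GV oocytes had 58.6 CPM at the lowest (GV2), 106 at the median and 477 at the highest (GV1). GV1 and GV4, at 477 and 443 CPM, stood above the other GV oocytes, the next of which, GV3, had 187 CPM. The MII oocytes ran from 26.9 CPM (MII3) through 54.9 to 139 CPM (MII5). MII5 and MII6, at 139 and 103 CPM, lay inside the GV range, and the other 4 MII oocytes lay below every GV oocyte in CPM. With the unnamed feature left out of the totals, only 1 MII oocyte lay below every GV oocyte. Relative to the oocyte's median gene it was also 1. The coefficient of variation was 86.8% in GV and 59.5% in MII, but 4.30% among GV7 to GV9, which had 88.6, 95.9 and 89.8 CPM. The sums gave 193 CPM (189 to 197, 8470 counts) in GV and 76.0 CPM (70.6 to 81.7, 732 counts) in MII. The log2 ratio of −0.36 ± 1.57 was much smaller than the spread. It was −0.61 with GV1 to GV6 as the reference and 0.59 with GV7 to GV9. Without MII5 and MII6 it was −1.36.

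Kit (ENSMUSG00000005672, chromosome 5, plus strand, 21 exons) encodes the receptor for Kit ligand. Its CPM ran from 125 (GV2) through 295 to 617 (GV8) in GV and from 61.7 (MII6) through 213 to 262 (MII4) in MII. All of GV7, GV8 and GV9, at 611, 617 and 495 CPM, were above all of GV1 to GV6, the highest of which was GV4 at 327 CPM. They were also above every MII oocyte in CPM, as GV7 to GV9 were for Gdf9 and Bmp15 too. How many other measured genes share this was not counted. For Kit, GV1 to GV6 and MII overlapped. The sums gave 324 CPM (319 to 330, 14232 counts) in GV and 174 CPM (166 to 183, 1679 counts) in MII. The log2 ratio was 0.09 ± 0.98 with all GV oocytes as the reference. It became 0.57 with GV1 to GV6 and −0.87 with GV7 to GV9. The direction of the stage difference for Kit therefore turned with the set of GV files used.

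**Figure D2:**
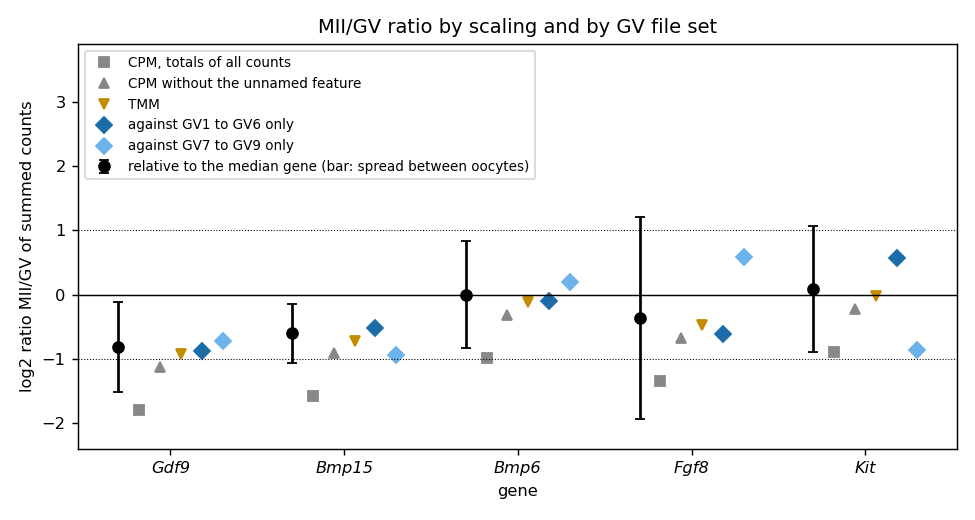
Log2 ratio MII/GV of summed counts for each gene (vertical axis) under 3 other scalings and against each set of GV files alone. Black points with bars are relative to the median gene with the spread between oocytes, and dotted lines mark 2-fold. Gdf9 and Bmp15 are below 0 under every setting drawn, while Kit moves from 0.57 to −0.87 and Fgf8 from −0.61 to 0.59 between the sets.

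The difference between the sets of GV oocytes was set beside that between the stages for the same reason. Kit had 233 CPM over GV1 to GV6 and 577 CPM over GV7 to GV9, a log2 ratio of 1.51 relative to the median gene. Of 10764 genes measured there 18.1% were higher in the latter set by 2-fold or more, and 8.01% had every oocyte of GV7 to GV9 above every oocyte of GV1 to GV6 in CPM. Fgf8 had 230 and 91.3 CPM, a ratio of −1.13, beside 20.2% of genes at least 2-fold lower. Its sets overlapped through GV2, with 5 of the 6 oocytes GV1 to GV6 above all of GV7 to GV9. Bmp15 stood at 0.49, Gdf9 at −0.10 and Bmp6 at −0.22. Relative to the median gene, this difference between oocytes of the same stage was larger than that between the stages for Kit, Fgf8 and Bmp6. In CPM it was larger for Kit alone, at 1.31 between the sets and −0.89 between the stages. Fgf8 had −1.33 and −1.34 in CPM, and Bmp6 −0.42 and −0.98. Whether the difference between the sets comes from the preparation, the mice or the counting was not tested.

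Count ratios between a pair of genes in the same oocyte need no scaling between libraries. The Gdf9 to Bmp15 count ratio lay between 0.76 and 2.29 in GV, with a median of 1.48, and between 0.91 and 2.08 in MII, with a median of 1.37. The mean log2 ratio was 0.45 ± 0.49 (SD, n = 9 oocytes) in GV and 0.45 ± 0.43 (SD, n = 6) in MII. These means were much closer than the spread, while each gene alone was at least 3-fold lower in MII in CPM. The close match holds for the 9 GV oocytes pooled. GV1 to GV6 had a mean of 0.60 ± 0.54 (SD, n = 6) and GV7 to GV9 one of 0.15 ± 0.13 (SD, n = 3), on either side of the MII mean. The ratio of Gdf9 to Bmp6 had a mean of 3.30 ± 0.75 in GV and 2.61 ± 0.74 in MII, and that of Bmp15 to Bmp6 was 2.85 ± 0.82 and 2.16 ± 0.49. For Gdf9 to Bmp6 the difference between the stages was smaller than the SD of either stage. For Bmp15 to Bmp6 it was smaller than the SD of the GV oocytes but larger than that of the MII oocytes. The ranges overlapped for both ratios. The ratio of Gdf9 to Fgf8 was 4.45 ± 0.71 in GV and 4.07 ± 1.19 in MII.

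Ratios to Kit followed the sets of GV oocytes. The log2 ratio of Bmp15 to Kit was 3.23 ± 0.25 (SD, n = 6) in GV1 to GV6, 2.20 ± 0.44 (SD, n = 3) in GV7 to GV9 and 2.14 ± 0.39 (SD, n = 6) in MII. The lowest of GV1 to GV6, GV6 at 2.77, was above the highest of GV7 to GV9, GV9 at 2.55, and above the highest MII oocyte, MII3 at 2.54. Gdf9 to Kit gave 3.84 ± 0.55 in GV1 to GV6, 2.34 ± 0.44 in GV7 to GV9 and 2.60 ± 0.48 in MII. By both ratios GV7 to GV9 lay nearer to the MII oocytes than to the other GV oocytes. Fgf8 to Kit gave −0.34 ± 1.06, −2.65 ± 0.16 and −1.47 ± 1.53 in the same order. Bmp6 to Kit gave 0.62 ± 0.64, −1.12 ± 0.47 and −0.01 ± 0.69, and there the MII mean lay nearer to GV1 to GV6. Without Kit, the ratio of Bmp15 to Bmp6 was 2.62 ± 0.74, 3.31 ± 0.91 and 2.16 ± 0.49. By that ratio GV7 to GV9 lay further from MII than GV1 to GV6 did.

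**Figure D3:**
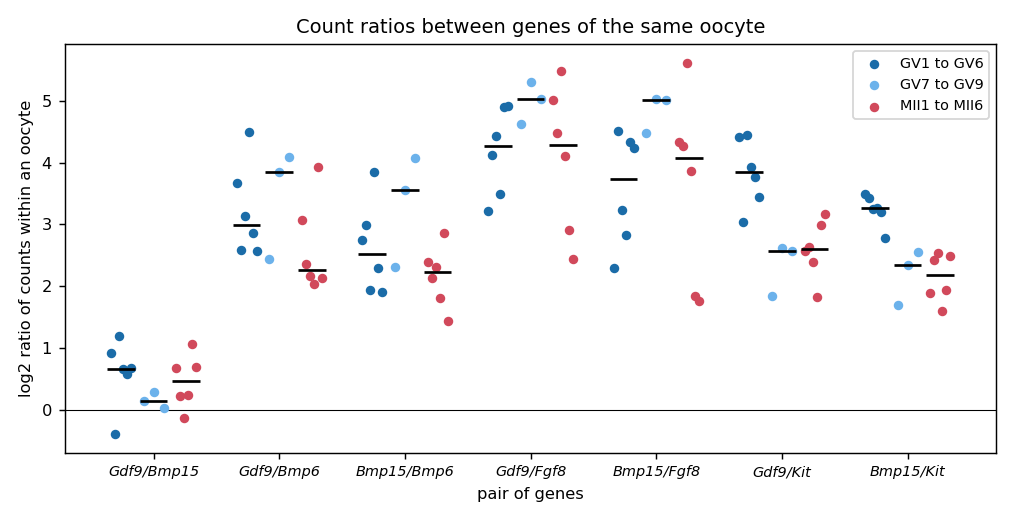
Log2 ratio of counts between a pair of genes within each oocyte, with medians as black lines. For Gdf9/Bmp15 the MII range lies inside the GV range, while for Bmp15/Kit all of GV1 to GV6 lie above all of GV7 to GV9 and all MII oocytes.

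Levels of different genes were compared per length, as CPM per kb of the gene's merged exons. Over GV oocytes Gdf9 had 1690 CPM per kb, Bmp15 747, Fgf8 143, Bmp6 90.9 and Kit 36.4. Over MII oocytes the values were 486, 249, 56.3, 46.0 and 19.6 CPM per kb in the same order. Gdf9 was above Bmp15 and Bmp15 above Fgf8 in all 9 GV and all 6 MII oocytes. Fgf8 and Bmp6 could not be ordered: Fgf8 was higher in 5 of 9 GV and 2 of 6 MII oocytes. Bmp6 was above Kit in 7 of 9 GV oocytes and 6 of 6 MII oocytes. With the length of the longest transcript instead, these counts were 5 of 9 and 5 of 6, so the lower end of the order depends on the length used. In GV7 to GV9 the last 3 genes were close, at 73.0 (Bmp6), 67.7 (Fgf8) and 64.7 (Kit) CPM per kb of merged exons. Which exons the oocyte's transcripts use was not measured.

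Genes with the most similar pattern over the 15 oocytes were sought among 5759 protein-coding genes of at least 20 CPM. Likeness was the root mean square (RMS) difference of the log2 level relative to the oocyte's median gene, each gene centred on its own mean. Nearest to Gdf9 were Aaas (a nuclear pore protein, RMS difference 0.34), Ncoa4 (the receptor for ferritin autophagy, 0.37) and Slc3a2 (a subunit of amino acid transporters, 0.40), against a median gene at 1.02. Bmp15 was the 10th nearest gene to Gdf9, at 0.44. Nearest to Bmp15 were Ncoa4 (0.29), Nlrp5 (a protein of the subcortical maternal complex, 0.32) and Aass (an enzyme of lysine breakdown, 0.32), and Gdf9 was the 45th. A gene that did not vary at all would lie 0.60 from Gdf9 and 0.46 from Bmp15. Gdf9, at 0.44, was thus little nearer to Bmp15 than such a gene. Nearest to Bmp6 were Mief1 (a mitochondrial fission factor, 0.29), Mark2 (a polarity kinase, 0.31) and Slc44a2 (a choline transporter, 0.32). Fgf8 had Rps16 (a ribosomal protein, 0.44), Npm2 (the oocyte nucleoplasmin, 0.47) and Mrpl12 (a mitochondrial ribosomal protein, 0.49). Kit had Epb41l5 (0.32), Pla2g15 (a lysosomal phospholipase, 0.36) and Tm9sf2 (0.39). These are descriptions over 15 oocytes that differ in depth and file set, and stage is part of every pattern.

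Other ligands of the TGF-β family were mostly scarce. The counts past 2-fold in this and the following lists stand beside 15.5% of all measured genes lower and 12.1% higher. Of 28 on the list 8 were measured, 5 of them lower in MII than the median gene by 2-fold or more, 1 higher by as much and 2 in between. Tgfb2, the most abundant, had 139 CPM in GV and 50.3 CPM in MII (log2 ratio −0.48 ± 0.81). Tgfb3 had 44.5 and 46.1 CPM (1.04 ± 0.45), a higher ratio than any other measured ligand of the list. Inha, the inhibin α subunit and a granulosa cell product, had 1743 counts over 7 of 9 GV oocytes and none in MII. Set against a floor of 3 counts over the MII stage, its CPM was 127-fold lower. That floor takes reads as independent molecules, which PCR reads are not, so it gives no strict bound. The list's median was −3.46, or −3.17 with the 3 genes at 0 in MII set to that floor. It rested on genes of few counts: with a filter of 20 CPM it was −0.48 with 1 gene at least 2-fold lower. With the median CPM of oocytes it was −2.04 with 3 lower. The list's median was −2.59 without GV1, −2.50 without GV2 and −1.97 without both, with 4, 4 and 3 genes at least 2-fold lower. Against GV7 to GV9 alone, over the genes measured there, it was −1.24 with 3 lower. Tgfb3 was no longer 2-fold higher without GV2, GV8 or MII6. Of 21 other fibroblast growth factors 4 were measured, with 2 at least 2-fold lower, 0 higher and a median of −0.89. Without GV3 the median was −1.82 with 4 lower, after thinning −2.43 with 4 lower, and against GV1 to GV6 alone −3.50 with 5 lower, over the genes measured in each case. Leaving out GV1, GV2, GV4, MII4, MII5 or MII6 gave 1 higher. GV7 to GV9 alone as the reference gave a median of −1.62 with 4 lower and 1 higher. Fgf1 was the most abundant, with 29.7 and 10.7 CPM.

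The proprotein convertases cut growth factor precursors to their active form, and 3 of 7 were measured, all within 2-fold of the median gene (1 at least 2-fold lower without MII2 or MII3). Furin had 647 CPM in GV and 294 CPM in MII (−0.16 ± 1.04), and Pcsk6 had 11.5 and 3.84 CPM (−0.58 ± 1.44). Among extracellular antagonists 3 of 11 were measured, 1 at least 2-fold lower, 1 higher and 1 within. Twsg1 had 21.1 and 10.2 CPM (−0.06 ± 1.80). Bambi, a decoy receptor grouped with them, had 6.06 and 6.75 CPM (1.15 ± 2.7). Nog, the BMP antagonist noggin, had 304 counts in GV, all from GV1 and GV2 (142 and 162), and 0 in MII. Without GV1 or GV2 none of the antagonists was at least 2-fold lower, and without MII6 there were 2. Without GV1, GV2, GV3 or MII5 none was at least 2-fold higher.

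Of 25 receptors and Smads of the family on the list 19 were measured, 2 at least 2-fold lower, 1 higher and 16 within, with a median of 0.07. Smad4, the shared Smad, had 372 CPM in GV and 223 CPM in MII (0.24 ± 1.16). The type I receptor Bmpr1b had 137 and 127 CPM (0.88 ± 0.80), the type II receptor Bmpr2, which binds BMP15 and GDF9, had 206 and 112 CPM (0.10 ± 1.39). Both receptors were named for their role with these ligands after their values were seen. Smad9 had the highest ratio, at 5.22 and 6.33 CPM (1.27 ± 1.66). Smad7, an inhibitory Smad, had 597 counts over 6 GV oocytes and none in MII. By the same floor its CPM was 43.7-fold lower, again no strict bound. GV1 and GV2 held 256 and 278 of those counts. With that floor the value was 28.0-fold without GV1, 25.8-fold without GV2 and 5.81-fold without both. The list had 1 gene at least 2-fold lower without GV1 or without GV2 and 0 without both, and 3 without any of GV3, GV5, GV6, GV7, MII3, MII4 or MII5. It had 3 genes at least 2-fold higher when GV3, GV5, GV6, MII2 or MII6 was left out. Over the genes measured in each case, it had 2 lower and 4 higher against GV7 to GV9 alone. The counts against GV1 to GV6 alone were 3 lower and 1 higher.

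On the FGF side, 9 of 16 receptors, feedback inhibitors and targets were measured, with 2 at least 2-fold lower, 1 higher and 6 within (median 0.23). GV7 to GV9 alone as the reference gave 2 lower and 2 higher, and GV1 to GV6 alone gave 2 lower and 0 higher. Spry4, a feedback inhibitor of receptor tyrosine kinases, was the most abundant, with 1355 and 1151 CPM (0.75 ± 1.01). Spred2, a related inhibitor, had 63.6 and 65.6 CPM (1.03 ± 0.68) and was no longer 2-fold higher without GV2, GV4, GV7, GV9, MII4 or MII5. Etv5, a transcription factor downstream of FGF, had 18.5 and 2.60 CPM (−1.82 ± 1.29). For KIT signalling 28 of 30 genes were measured, 4 at least 2-fold lower, 0 higher and 24 within (median 0.03). Without MII4 or without both GV1 and GV2, 2 were at least 2-fold lower. Over the genes measured in each case, GV7 to GV9 alone gave 4 lower and 3 higher (median −0.46). GV1 to GV6 alone gave 4 lower and 0 higher (median −0.03). Foxo3, the forkhead factor that PI3 kinase signalling sends out of the nucleus, had 913 and 475 CPM (0.04 ± 0.88). Grb2, an adaptor that leads to Ras, had 17.4 and 1.77 CPM (−2.27 ± 1.59), and the adaptor Shc1 had 84.3 and 77.5 CPM (0.86 ± 0.57). Kitl, the ligand of KIT, had 156 counts in GV and 9 in MII, under the level at which a gene was measured, and was likewise named after its values were seen. Of the 12 oocyte markers 2 were at least 2-fold lower and 0 higher, with a median of −0.68 (1 lower without GV8, 4 without GV7 or MII3). For these markers GV7 to GV9 alone gave 5 lower and 1 higher, and GV1 to GV6 alone gave 3 lower and 0 higher. Zp2 had 1024 and 58.3 CPM (−3.15 ± 1.08), Nobox 926 and 699 CPM (0.58 ± 1.18) and Zp3 a ratio of −0.93 ± 1.09.

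**Figure D4:**
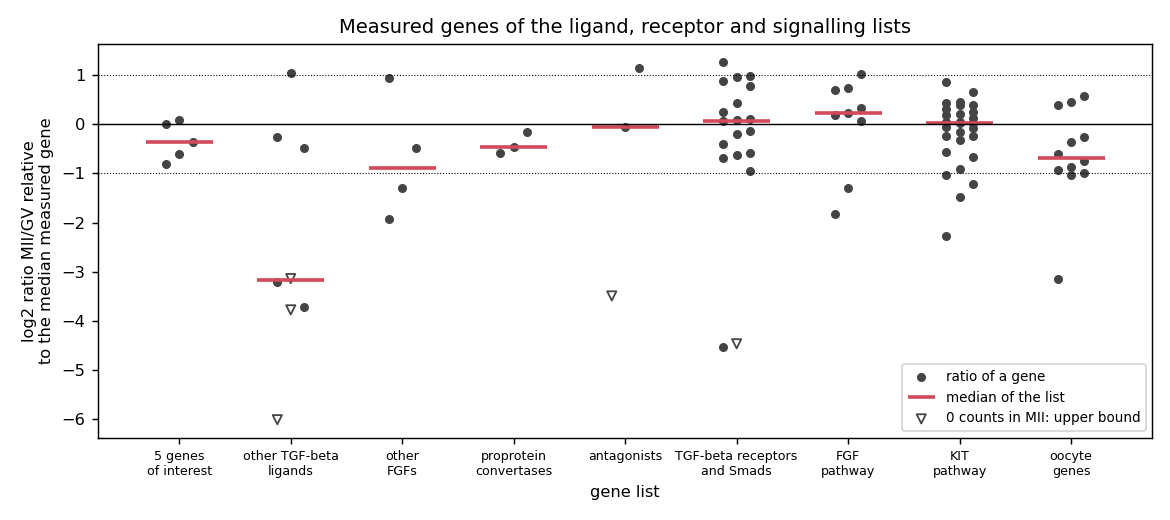
Log2 ratio MII/GV relative to the median measured gene for each measured gene of the lists, with list medians in red and dotted lines at 2-fold. Open triangles, labelled as upper bounds, are genes with 0 counts in MII, drawn at the value that a floor of 3 counts gives. Of the KIT pathway genes 24 of 28 lie within 2-fold, and other TGF-β ligands reach furthest down.

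Markers of other cells were summed per oocyte. The 18 cumulus and granulosa markers summed to 256 to 521 CPM per GV oocyte, highest in GV1, and to 106 to 279 CPM per MII oocyte. These sums were of the size of the Kit and Bmp6 levels and above the summed Fgf8 level in both stages. Most of this came from Serpine2 (158 CPM in GV, 129 CPM in MII) and Nr5a2 (83.8 and 31.3 CPM), both present in all oocytes, and 7 of the 18 were at 0 in every MII oocyte. Of the 6 measured markers of this list 3 were at least 2-fold lower in MII relative to the median gene and 0 higher, with a median of −2.87, or −2.11 with the 2 genes at 0 in MII set to the floor. Without GV1 and GV2 it was −0.45 with 2 lower, and without GV3 there were 4 lower and 1 higher. With GV1 to GV6 alone as the reference it was −5.74 with 5 lower and 0 higher. With GV7 to GV9 alone it was −0.16 with 1 lower and 1 higher, over the genes measured in each case. The 3 markers lower against all GV oocytes, named after their values were seen, were Inha, Amh (370 counts in GV, 0 in MII) and Npr2 (534 counts in GV, 1 in MII). Serpine2 and Nr5a2 stood at 0.70 ± 0.39 and −0.44 ± 0.82. Npr2 had a ratio of −0.92 without GV1 and GV2. Against GV7 to GV9 alone neither Amh nor Npr2 reached the level of a measured gene. With almost no counts on either side, the ratio of 1.13 for both was set by the added 0.5 and the library totals. A lower level in MII could not have shown there. Theca and stroma markers summed to 0.707 to 34.7 CPM in GV and 0 to 27.9 CPM in MII, led by Col1a1 (2.98 and 4.26 CPM) and Hsd3b1 (2.73 and 0.623 CPM). Markers of mast, blood and immune cells, a list included because mast cells carry Kit, summed to 0.206 to 8.34 CPM in GV and 0 to 11.5 CPM in MII. Of its 15 genes 7 were at 0 in every GV oocyte and 10 in every MII oocyte, and Cd68 (3.01 and 5.40 CPM) and Csf1r (0.683 and 0.208 CPM) led it. In GV7 to GV9, where Kit was highest, that list summed to 5.19 to 7.18 CPM, with 13 of 15 genes at 0. Oviduct markers summed to 0 to 16.7 CPM in GV and 0 to 13.1 CPM in MII, led by Tppp3 (153 counts in GV, 1 in MII) and Ccdc153 (1 and 19 counts). The share of other cells' RNA in the values of the 5 genes was not tested.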

How the data were processed

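Single mouse oocytes were sequenced with MATQ-seq. Each oocyte has 1 deposited file, which lists whole-number counts by Ensembl gene, per the file headers. Reads were processed with STAR 2.7.10a and cutadapt 4.0 on GRCm39, per the submitters' processing notes. How reads were counted (tool, annotation, strand, molecular identifiers) is not given in the sources used. Genes that a file does not list were set to 0. No pair of oocytes of a stage agreed within sampling noise (lowest chi-square per degree of freedom 4.88).

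Symbols, lengths and 3′ ends came from GENCODE M21, which is on the older build GRCm38, so no coordinates are given. A symbol was found for 28402 of 28785 IDs (98.7%) and for 202 of 203 list genes.

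The 5 genes, the lists and the settings were chosen with earlier results of these data known. Counts were summed per stage, and 0.5 was added before the log2 ratio of CPM was taken. A measured gene had at least 5 CPM in the higher stage. Ratios were centred on the median measured gene. The spread combined both SDs of log2(CPM + 1) relative to the oocyte's median gene. From each list the genes named were the most abundant and the lowest and highest by ratio, the 2 most abundant for marker lists, and the 3 genes nearest in pattern to each of the 5. Intervals are exact Poisson at 95%. Depth was 808641 to 7103063 counts per oocyte. Alternatives were other scalings (edgeR 4.0.16 TMM, DESeq2 1.42.0 median of ratios, totals without the unnamed feature), summaries, filters, pseudocounts, thinning and left-out oocytes. Tools were Python 3.11.15, numpy 2.4.6, pandas 2.3.3, scipy 1.17.1, matplotlib 3.10.9 and R 4.3.3.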

Additional observations from a re-analysis of the deposited data

Results flagged for a closer look

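The Gdf9 level of GV2, 5.28 on the log2 scale relative to that oocyte's median measured gene, lay apart from the other 8 GV oocytes. Its gap to the nearest of them was 0.617 of the whole range of the group. It was the only value apart by this measure among 40 groups checked, and chance alone marks about 1 in 20. GV2 was also the lowest GV oocyte in CPM for all 5 genes.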

How the results depend on the processing

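Each ratio of the 5 genes was recomputed under 31 alternatives. Gdf9 and Bmp15 lay below 0 under all 31, Bmp6 under 18, Fgf8 under 30 and Kit under 11. In CPM, with no median gene taken off, Gdf9 stood at −1.80, Bmp15 at −1.59 and Bmp6 at −0.98, lower by the shift of the median gene. With the unnamed feature left out of the totals the values were −1.13 (Gdf9), −0.92 (Bmp15), −0.31 (Bmp6), −0.67 (Fgf8) and −0.23 (Kit), where the median gene stood at −0.31. With TMM they were −0.93, −0.72, −0.11, −0.47 and −0.03, where it stood at −0.11. Leaving out 1 oocyte at a time gave −0.93 to −0.73 for Gdf9, −0.68 to −0.53 for Bmp15, −0.10 to 0.12 for Bmp6, −0.72 to −0.10 for Fgf8 and −0.10 to 0.25 for Kit. The 1560 measured genes at least 2-fold lower became 4957 in CPM, 3489 with a filter of 1 CPM, 564 with a filter of 20 CPM and 7137 with no filter. The 1223 measured genes at least 2-fold higher became 203 in CPM, 686 without the feature, 2378 and 581 with filters of 1 and 20 CPM, 7309 with no filter and 1995 against GV7 to GV9 alone. Mean pair ratios were recomputed after thinning and without 1 oocyte at a time. All 170 moved by less than 1 SD, but leaving out 1 oocyte cannot move a mean that far. Using 1 set of GV files was not among these settings. For Gdf9 to Kit it gave a mean log2 ratio of 2.34 in GV7 to GV9, beside 3.34 ± 0.89 over all GV oocytes. The lists rest on few measured genes. No paired analysis was possible because no test was made and the numbers of the oocytes only name them. The shallowest MII library limits genes of few counts, and the lowest count of the 5 genes after thinning to its depth was 21.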
